A study of Caenorhabditis elegans with 2 samples.

Results

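The nuclear genes of oxidative phosphorylation were examined in a ChIP-seq peak list for the bZIP protein ATFS-1, which drives the mitochondrial unfolded protein response. The members were 39 genes of complexes I to V and cytochrome c, taken from a list of names, out of 19971 nuclear protein-coding genes in the gene table used for naming. A member was counted when the gene-name column of the deposited peak list held its symbol, its locus name or an older symbol, on the member's own chromosome. By that rule 14 of the 39 members were named, each at 1 peak, and together they accounted for 14 of the 1005 peaks.

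The study precipitated chromatin from lysates of whole wild-type Caenorhabditis elegans worms, grown from bleached eggs on spg-7(RNAi) food and harvested as L4 larvae after about 48 h, to find genes bound by ATFS-1 during mitochondrial stress. spg-7 encodes a protease of the mitochondrial inner membrane, and its silencing stresses mitochondria. The antibody library was made with ATFS-1 antibody, and the control library came from the same kind of worms, also on spg-7(RNAi), with no antibody. Both conditions therefore share the genotype and the RNAi, no unstressed worms were in the comparison, and all tissues of the larva were pooled in the lysate. Each condition had 1 library, so no value below has a replicate check and no test between conditions or complexes was made.

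The filtered libraries held 10992796 antibody tags and 10583049 control tags, from which the authors' peak caller computed every fold, score and false discovery rate given here. A fold sets the antibody signal of a peak over the level that the caller expected there from the control, and a tag is a sequenced fragment end. Duplicate removal took 40.0% of the antibody tags and 20.3% of the control tags, and the libraries came from different sequencing project folders, so project and antibody cannot be told apart. Positions are those of the deposited list, for which no source used here names a genome build, and where a peak lies within or beside its gene was not analysed here.

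Oxidative phosphorylation passes electrons from NADH through complex I, or from succinate through complex II, by way of ubiquinone to complex III, then by cytochrome c to complex IV and oxygen. Complexes I, III and IV pump protons across the mitochondrial inner membrane, and complex V, the ATP synthase, uses the returning protons to make ATP. Most subunits are encoded in the nucleus and imported, and a few core subunits are encoded in mitochondrial DNA. ATFS-1 carries both a mitochondrial and a nuclear targeting signal, and it accumulates in the nucleus when its import into mitochondria fails.

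Of the 39 members, 35.9% were named at a peak, against 4.56% of all nuclear protein-coding genes (910 of 19971). The list also held 107 distinct names that matched no nuclear protein-coding gene on the peak's chromosome. If each of those names had stood for 1 more gene, the share over all genes would have been 5.09%. The heights of the member peaks were ordinary for the list. Their median fold was 3.495 and their range 2.47 to 9.66, against a median of 3.26 and a range of 2.0 to 13.08 over every peak. A fold of 4 or more was reached by 3 of the 14 member peaks (21.4%), against 265 of the 1005 peaks (26.4%). Those 3, cyc-2.1, nduf-6 and atp-3, were 7.69% of the 39 members, against 1.2% of all genes named at a peak of that height.

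Stricter rules kept part of the 14. Peaks whose fold reached the list median named 9 members (23.1% of the 39), against 2.36% of all genes, and peaks whose score reached its median named 8 (20.5%), against 2.39%. Counting peaks with a single name left 12 members (30.8%), against 3.72% of all genes. The caller estimates a false discovery rate from peaks called with the libraries swapped. At 5% or less by that estimate cyc-2.1 alone remained, 1 of 39 members (2.56%), against 0.15% of all genes, and the other 13 member peaks had rates of 5.52% to 8.08%, with 7.55% at the median peak of the list.

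The shares were uneven over the complexes. Complex IV had 3 of its 4 members at a peak (75%), or 2 of 3 (66.7%) without the assembly factor sco-1, cytochrome c 1 of 2 (50%), complex I 5 of 11 (45.5%), complex V 4 of 11 (36.4%), complex II 1 of 5 (20%) and complex III 0 of 6. With 2 to 11 genes in each group, 1 gene more or less moves a share by many percentage points, and the differences between complexes were not tested.

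**Figure D1:**
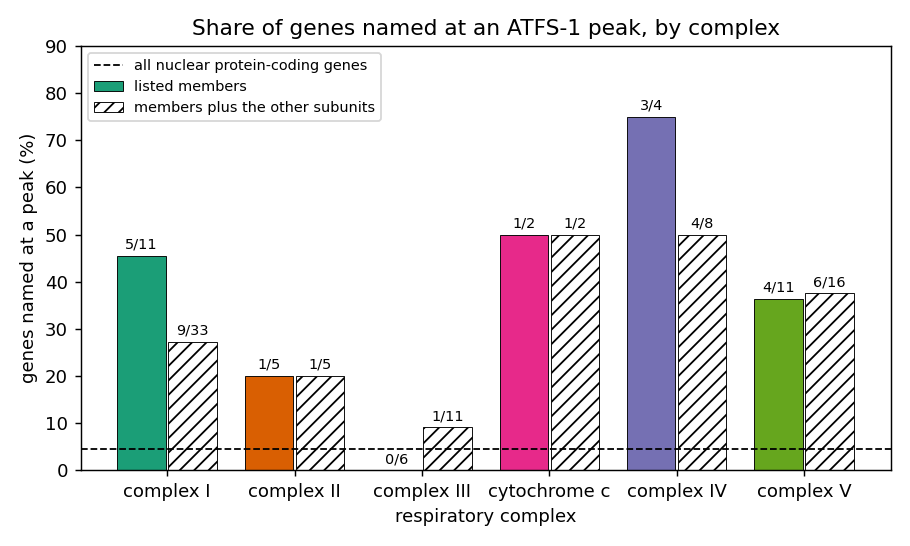
Share of genes named at a peak (vertical axis, in percent) by respiratory complex, for the 39 listed members (solid bars) and for the members plus other subunits of the same complex (hatched bars), with the count of genes above each bar. The dashed line is the 4.56% of all nuclear protein-coding genes. Complex III members stand at 0 of 6 and complex IV members at 3 of 4.

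Cytochrome c, the small protein that carries electrons from complex III to complex IV, had the highest fold of the members. The cyc-2.1 peak (chromosome IV, 4747284 to 4750784) held 1467 antibody tags (95% exact Poisson interval 1393 to 1544, counting error only) at 9.66-fold. It ranked 14 of the 1005 peaks by fold and 5 by tags per kb (419), and its false discovery rate was 0. The next member, nduf-6, stood at 4.63-fold, so no other member came near this value. The second cytochrome c gene of the worm, cyc-2.2, was not named at any peak. The nearest other peak to that of cyc-2.1 lay 1081 bp away and was listed under E04A4.5, the locus name of timm-17B.1, a gene of the inner-membrane import channel. That peak had 546 tags at 5-fold. The chromatin had been sheared to fragments of 500 to 1000 bp, per the labels' protocols, so the space between these peaks was about as long as the longest fragments.

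**Figure D2:**
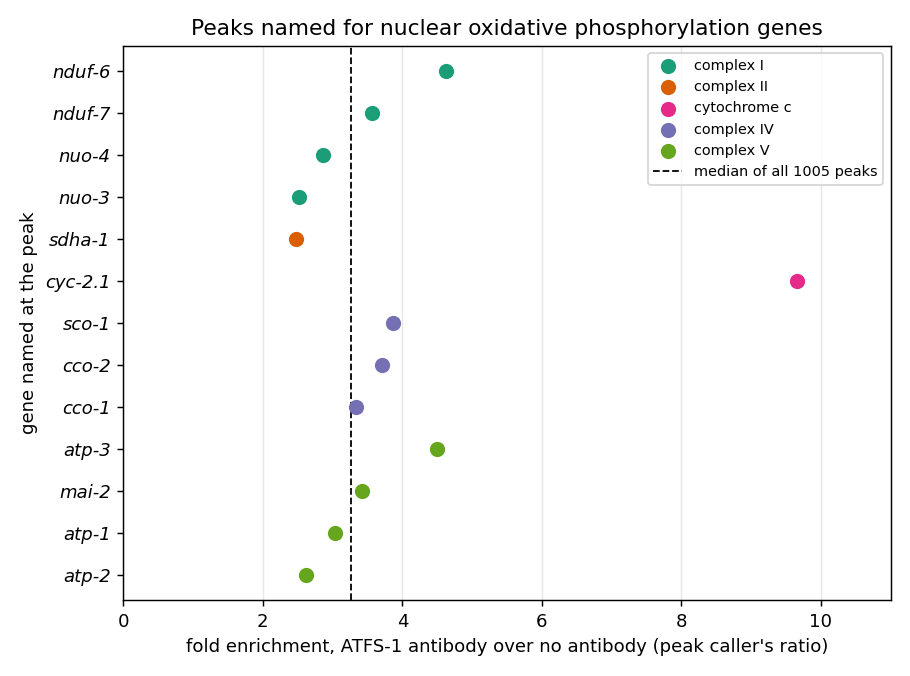
Fold enrichment of antibody over no antibody (horizontal axis, the caller's ratio) for 13 of the 14 member peaks, 1 point per gene, coloured and ordered by complex. The dashed line is the median of all 1005 peaks, 3.26. cyc-2.1 stands apart at 9.66, and the other points lie between 2.47 and 4.63.

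Complex I, the NADH dehydrogenase, is the largest complex and is built from core subunits, some of which carry electrons, and from accessory subunits around them. The nduf-6 peak (NDUFS6 in mammals, an accessory subunit) had 483 tags (interval 441 to 528) at 4.63-fold and ranked 176 by fold (chromosome I, 7086707 to 7088397). It was listed under nrs-1 and nduf-6 together, and nrs-1, an asparaginyl-tRNA synthetase gene now called nars-1, is the next gene in the gene table, so its tags cannot be divided between them. Another peak listed under F22D6.2 lay 1378 bp away and held 2077 tags at 3.65-fold.

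A smaller complex I peak lay at a core subunit. nduf-7 encodes the core iron-sulphur subunit NDUFS7, and its peak had 190 tags (interval 164 to 219) at 3.57-fold (chromosome I, 9112653 to 9113675). The nduf-7 peak was 1023 bp long and had the fewest tags of any member peak. Its fold lay above the list median of 3.26.

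The complex I peaks at accessory subunits other than nduf-6 lay below the list median. nuo-4 (NDUFA10) had 214 tags at 2.86-fold (chromosome III, 7155189 to 7156329). nuo-3 (NDUFA6) had 284 tags at 2.52-fold and ranked 884 by fold (chromosome IV, 14796345 to 14797896). The nuo-3 peak lay 1074 bp from a peak listed under coq-3, a ubiquinone synthesis gene that is its next gene in the table, with 502 tags at 3.11-fold. No peak was named for nuo-1, nuo-2, nuo-5, nuo-6 or lpd-5. These include the flavoprotein subunit that takes electrons from NADH (nuo-1).

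The order of complex I among the complexes depended on the measure of height. Its 5 peaks had a median fold of 3.57, above the 3.26 of all peaks, but a median of 188 tags per kb, below the 204 of all peaks, and only nduf-6 of the 5 exceeded that level. Complex V members differed from this in tags per kb. Their 4 peaks had a median fold of 3.23, close to that of all peaks, with 2 of the 4 above it. Their median was 215 tags per kb, and all 4 lay above the list median in tags per kb. At the further genes given below, complex V peaks held 254 and 173 tags per kb and complex I peaks 193 to 214. The contrast in tags per kb thus held for the members only.

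**Figure D3:**
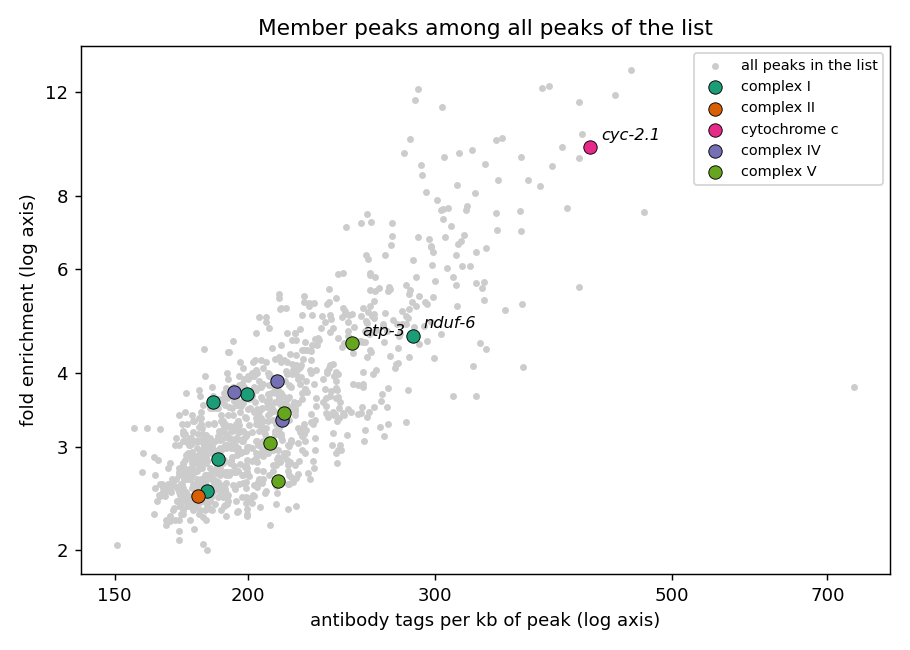
Fold enrichment (vertical log axis) against antibody tags per kb of peak (horizontal log axis) for every peak of the list (grey) and the 14 member peaks (coloured by complex). cyc-2.1 lies near the upper right at 419 tags per kb, nduf-6 and atp-3 follow at 286 and 250, and the remaining members lie between 180 and 216, within the bulk of the list.

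Complex II, succinate dehydrogenase, also works in the tricarboxylic acid cycle and has no mitochondrially encoded subunit. Its only member at a peak was sdha-1, which encodes the flavoprotein that oxidises succinate. That peak had 258 tags at 2.47-fold (chromosome X, 8545125 to 8546560), the lowest fold of the 14, at rank 908 of the list. No peak was named for sdha-2, the second flavoprotein gene, for sdhb-1, the iron-sulphur subunit, or for mev-1 and sdhd-1, the membrane anchors.

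Complex III takes electrons from ubiquinone to cytochrome c. None of its 6 members was named at a peak: cyc-1 (cytochrome c1), isp-1 (the Rieske iron-sulphur protein), ucr-1 (core protein 1), and ucr-2.1, ucr-2.2 and ucr-2.3 (core protein 2). The list holds only peaks past the caller's cutoff, with at least 176 tags and 2-fold, so weaker signal at these genes is not excluded. Of 5 other complex III genes, T27E9.2, a hinge-protein subunit, was named at a peak of 952 tags and 5-fold (chromosome III, 13462473 to 13465856). That peak was listed first under ant-1.1, an ADP/ATP translocator gene, and its tags cannot be divided between the genes.

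Complex IV, cytochrome c oxidase, passes electrons to oxygen. The structural subunit genes cco-1 and cco-2, listed under these older symbols and now called cox-5B and cox-5A, each had a peak. cco-2 had 474 tags at 3.71-fold (chromosome III, 12904573 to 12907015), and cco-1 had 528 tags at 3.33-fold (chromosome I, 9787524 to 9789975). The peak of sco-1, which encodes a copper delivery factor for assembly of the complex, was listed under its locus name C01F1.2 and had 270 tags at 3.87-fold (chromosome II, 4298929 to 4300195). All 3 folds were above the list median, within 3.33 to 3.87. The fourth member, cox-4, was not named. The cco-1 peak lay 227 bp from a peak of 324 tags and 2.51-fold listed under the alpha-tubulin gene tba-1, a shorter space than the sheared fragments.

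Complex V members at a peak included both main subunits of the catalytic head. atp-1, the alpha subunit, listed as H28O16.1, had 707 tags (interval 656 to 761) at 3.04-fold (chromosome I, 12651728 to 12655097). atp-2, the catalytic beta subunit, had 492 tags at 2.62-fold (chromosome III, 5227637 to 5229943). Both lay below the list median by fold. Their tag counts were above the list median of 325, but the peaks were 3370 and 2307 bp long, against a median of 1555 bp. Per kb they held 210 and 213 tags, against 204 at the median peak of the list.

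The other complex V peaks were higher by fold. atp-3, the subunit OSCP that joins the head to the peripheral stalk, had 540 tags at 4.49-fold and ranked 195 by fold (chromosome I, 5429144 to 5431300). mai-2, a homologue of the inhibitor protein IF1 that blocks ATP hydrolysis by the enzyme, had 641 tags at 3.42-fold (chromosome IV, 3383467 to 3386428), at a peak shared with its neighbour B0546.4. Its paralogue mai-1, not a member, was named at a peak of 2419 tags and 7.5-fold together with gpd-2 and gpd-3 (chromosome X, 3111880 to 3117019). No peak was named for atp-4, atp-5, asb-1, asb-2, asg-1, asg-2 or hpo-18, which encode stalk and membrane subunits and, for hpo-18, the small epsilon subunit of the central stalk.

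The peaks of complex V members were long. The 4 were 2157 to 3370 bp long, all above the list median of 1555 bp, whereas the 5 of complex I members were 1023 to 1918 bp long. At the further genes given below, complex V peaks were 2287 bp (Y82E9BR.3) and 1205 bp (F58F12.1) long. Peaks at further complex I genes were 1400 to 2471 bp long, so the contrast held for the members only. Of the 14 member peaks, 7 (50%) were at least 2 kb long, against 320 of the 1005 peaks (31.8%). The 7 were those of cyc-2.1, cco-1, cco-2, atp-1, atp-2, atp-3 and mai-2.

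**Figure D4:**
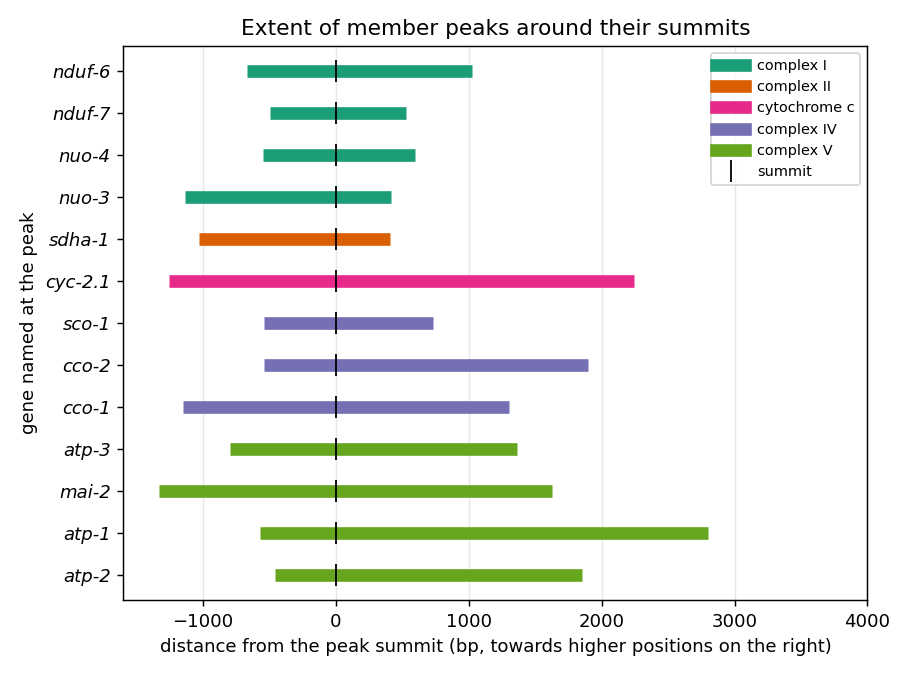
Extent of 13 of the 14 member peaks in bp around the summit (0, black tick), with higher chromosome positions to the right regardless of the gene's strand. Bars are coloured by complex. The 4 complex V bars run 2157 to 3370 bp, the cyc-2.1 bar is 3501 bp, and no complex I bar shown exceeds 1691 bp.

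Where members have a close copy, the copies did not all behave alike. mai-2 and its paralogue mai-1 were both named, but each at a peak also listed under neighbouring genes, so neither peak can be assigned to the mai gene alone. cyc-2.1 but not cyc-2.2, and sdha-1 but not sdha-2, had a peak. Neither asb-1 nor asb-2, neither asg-1 nor asg-2, and none of the 3 ucr-2 genes had one. No source used here says how tags that fit both copies were placed, so an absent peak at a copy is uncertain.

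The neighbours of the 25 members without a peak gave no result about the members, since the counts were small and near the shares over all genes. None of the 25 had a protein-coding gene directly before or after it that was named at a peak, against 7.93% of all nuclear protein-coding genes without a peak. Widening to 2 genes on each side gave 3 of the 25 (12%), ucr-2.2 and cox-4 among them, against 15% of such genes. Neighbours listed under an older symbol, such as nrs-1, were not recognised in these counts.

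By chromosome, members were named at 5 of 12 on I, 4 of 8 on III, 3 of 4 on IV, 1 of 4 on II, 1 of 6 on X and 0 of 5 on V. Over all nuclear protein-coding genes the shares named at a peak were 5.74% on I, 6.81% on III, 4.45% on IV, 3.89% on II, 5.13% on X and 2.9% on V, so V was the lowest among all genes as well. None of the 12 protein genes of the mitochondrial genome was named, and the list held no peak on that genome. The list cannot show whether ATFS-1 binds there. At most 1 tag per position was kept, and whether that genome was searched for peaks was not checked here.

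A list of 53 other genes of the pathway gave a lower share than the members, 20.8%, against 4.56% of all nuclear protein-coding genes. The 11 genes were named at 10 peaks with a median fold of 3.34. Of 22 further complex I subunit genes 4 were named, at 2.72- to 3.49-fold: Y54F10AM.5 (ndua-8, 378 tags, 3.49-fold), Y63D3A.7 (ndua-2, 3.27-fold, shared with dnj-29), Y51H1A.3 (ndub-8, 2.88-fold, shared with Y51H1A.2) and Y71H2AM.4 (nduc-2). Y71H2AM.4 shared its 2.72-fold peak of 476 tags with Y71H2AM.5, the complex IV gene cox-6B, the only 1 of 4 further complex IV genes named. Of 5 further ATP synthase genes 2 were named, Y82E9BR.3, which encodes the proton-carrying ring subunit c (580 tags, 3.41-fold), and F58F12.1, the delta subunit (208 tags, 2.42-fold).

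The assembly and ubiquinone genes in the list of 53 added few, and assembly genes on neither list were not counted. Of the 9 assembly genes in it only nuaf-1, listed as C50B8.3 and coding for a complex I assembly factor, was named, at 682 tags and 5.91-fold on a peak shared with C50B8.1. This was the highest fold of the 53, at rank 72. Of 8 ubiquinone synthesis genes 2 were named, coq-1 (183 tags, 3.74-fold), the prenyl-chain synthase, and coq-3 beside nuo-3. The shares were 11.1% of the assembly genes and 25% of the ubiquinone genes, against 4.56% of all nuclear protein-coding genes.

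Members and other genes together gave 25 of 92 (27.2%), against 4.56% of all nuclear protein-coding genes. The assembly factor sco-1 was counted in complex IV as in the member list, and the 9 further assembly genes were kept apart. By complex, IV stood at 4 of 8 (50%), V at 6 of 16 (37.5%), I at 9 of 33 (27.3%), II at 1 of 5 and III at 1 of 11 (9.09%). Complex IV stood at 3 of 7 (42.9%) without sco-1 and at 4 of 14 (28.6%) with cox-10, cox-11, cox-15, cox-17, cox-19 and sft-1 counted in it. Its place above complex V and its distance from complex I therefore depend on where assembly genes are put. The 9 of 33 of complex I was counted without its assembly gene nuaf-1, which was named at a peak. The share of complex I was thus lower with its further subunits than among the 11 members, while that of complex V changed little.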

How the data were processed

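The deposited file was a peak list that the authors made with MACS 1.4.2 from 1 antibody library and 1 no-antibody library, per the file headers, with a p cutoff of 1e-05, at most 1 tag per position, and the larger library scaled towards the smaller. The submitters' processing notes also name BWA 0.7.5 and Picard. Deposited tag counts are whole antibody tags per region. The deposited fold enrichment is a ratio, the false discovery rate is in percent, and the deposited score, whose heading was damaged, was read as log10 p with its sign turned, times 10.

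Of 1033 names at the peaks, 925 matched a nuclear protein-coding gene on the peak's chromosome in RefSeq's table of assembly WBcel235, ignoring case, hyphens and comments, 12 a gene on another chromosome, and 96 none of these genes. Only 2 older symbols (cco-1, cco-2) were matched by hand. Positions along chromosomes were not compared. Matching was tested on simulated names. Exact Poisson intervals used scipy 1.17.1 (95%).

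The members, the list of other genes and the comparisons were chosen with earlier results of these data known. A pair of complex I members is counted but not reported singly here. Every other member at a peak is named with its values, as is every gene at a peak from the list of other genes. Neither list was complete for the pathway, and pathway genes on neither list were not counted in any share by complex. Names by peak, thresholds on fold, score and false discovery rate, and tags per kb were tried as alternatives. Promoter motifs and protein identity were planned and not analysed here.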

Additional observations from a re-analysis of the deposited data

How the results depend on the processing

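No paired analysis was possible because the antibody and the control had 1 library each, and leaving out a library was likewise not possible. Keeping names on any chromosome changed no count and no median. With member symbols only, 11 members were named, with a median fold of 3.42 (3.215 for complex I, 3.42 for V). With single-name peaks 12 were named, with a median of 3.45 (3.215 for I, 3.04 for V). Among peaks reaching the median fold 9 members were named (3 of complex I, 0 of II, 2 of V), with a median of 3.71 (3.68 for I). Among peaks reaching the median score 8 were named (2 of complex I, 0 of II), with a median of 3.79 (3.42 for V). At a false discovery rate up to 5%, cyc-2.1 at 9.66-fold was the 1 member named, and complexes I, II, IV and V had 0; fewer peaks enter these settings by construction. Complex III stayed at 0 under each of these settings. Except for names kept on any chromosome, each setting keeps only part of the peaks or names, so a count of 0 could not rise. The median member peak stood at percentile 59.35 of the list by fold and 58.01 by tags per kb. With 2 genes on each side, 3 members without a peak had a named neighbour. Chosen after seeing the data, the placing of assembly genes moved the share of complex IV, members and other genes together, to 42.9% without sco-1 and to 28.6% with the 6 further assembly genes of that complex. With list names only, 10 other pathway genes were named. Tag counts of 190 to 1467 limit the precision of each peak, and with 1 library per condition the spread between worms is unknown.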
